A study of Mus musculus with 3 samples.

Results

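Fibroblast growth factor (FGF) signalling in the lung was examined through 10 genes, chosen by name: the ligands Fgf1, Fgf7, Fgf9 and Fgf10, the receptors Fgfr1, Fgfr2 and Fgfr3, the feedback inhibitors Spry1 and Spry2, and the target gene Etv4. They had 16 of the 16383 transcript rows in the deposited table. RNA of whole mouse lung, on a mixed C57BL/6J background, had been sequenced from 1 wild-type library (WT) and 2 libraries labelled as lacking Lin28a and Lin28b (DKO 1 and DKO 2). Lin28a and Lin28b encode RNA-binding proteins that block maturation of the let-7 microRNAs. Per the labels, tamoxifen activated in the DKO animals a Cre recombinase expressed from Nkx2-1, an epithelial transcription factor gene, and exon 2 of each target gene, between loxP sites, was recombined. Whether the WT animal carried Cre or loxP alleles or received tamoxifen, the ages, and the number of animals behind the DKO libraries are not stated in the labels, so the spread between DKO 1 and DKO 2 may be partly technical.

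In the branching lung, FGF10 is made by mesenchyme at the tips of the growing epithelium and acts on the epithelial receptor FGFR2, and FGF9 is made by mesothelium and epithelium and acts largely on mesenchyme. Receptor activation runs through Ras and a cascade of kinases, and switches on ETS transcription factors such as Etv4. Sprouty proteins are induced by the same signal and dampen it, which makes them feedback inhibitors. The study's title speaks of feedback loops between signalling pathways and of a mode of action independent of let-7, so the question here was how the ligand, receptor and feedback transcripts stood in the DKO libraries beside WT.

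The promoters of the 4 genes on which the comparison turned are shown because Fgf10 and Fgf9 lay above WT in both DKO libraries, Spry1 lay below in both, and its close relative Spry2 did not follow it. Each runs 5′ to 3′ on the strand of its gene, from 250 bases before to 50 bases after the annotated start (RefSeq, GRCm38.p6), at chr13:118714449-118714748 for Fgf10, chr14:58072436-58072735 for Fgf9, chr3:37639697-37639996 for Spry1 and, on the minus strand, chr14:105896770-105897069 for Spry2. The Fgf9 window lies inside the listed gene, which begins at 58070671, so its start is not the outermost of that gene. Capitals would mark a match to any of 3 motifs, and the windows shown hold none.
Fgf10: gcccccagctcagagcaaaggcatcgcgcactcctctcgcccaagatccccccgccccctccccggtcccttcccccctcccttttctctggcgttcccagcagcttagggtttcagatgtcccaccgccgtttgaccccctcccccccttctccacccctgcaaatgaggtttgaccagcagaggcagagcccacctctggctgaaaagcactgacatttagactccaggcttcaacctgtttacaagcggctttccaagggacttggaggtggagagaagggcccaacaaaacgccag
Fgf9: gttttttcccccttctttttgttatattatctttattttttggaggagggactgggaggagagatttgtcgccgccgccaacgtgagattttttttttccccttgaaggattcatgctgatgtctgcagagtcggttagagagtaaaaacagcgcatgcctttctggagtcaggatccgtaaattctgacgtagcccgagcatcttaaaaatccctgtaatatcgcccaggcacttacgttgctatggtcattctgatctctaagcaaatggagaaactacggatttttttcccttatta
Spry1: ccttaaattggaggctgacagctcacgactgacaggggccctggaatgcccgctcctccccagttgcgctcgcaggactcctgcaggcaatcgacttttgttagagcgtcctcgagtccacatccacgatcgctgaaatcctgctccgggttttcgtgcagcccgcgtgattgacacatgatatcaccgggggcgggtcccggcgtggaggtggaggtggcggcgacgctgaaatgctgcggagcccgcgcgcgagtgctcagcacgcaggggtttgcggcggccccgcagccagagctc
Spry2: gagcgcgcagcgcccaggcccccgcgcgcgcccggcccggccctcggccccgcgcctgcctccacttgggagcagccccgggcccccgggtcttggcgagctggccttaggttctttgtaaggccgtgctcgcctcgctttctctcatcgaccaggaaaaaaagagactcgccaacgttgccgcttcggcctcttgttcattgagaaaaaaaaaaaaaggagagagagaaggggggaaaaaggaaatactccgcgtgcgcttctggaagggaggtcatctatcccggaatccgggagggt

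The motifs searched on both strands were CCGGAAG and AGGAAG of the ETS family and TGANTCA of AP-1. The ETS motifs share the letters GGAAG and differ in what precedes them. Of 32851 RefSeq promoters of 300 bases, 8.86% held CCGGAAG, 35.4% AGGAAG and 7.81% TGANTCA. Among the 7 genes of the group with a promoter used here, only Fgfr2 held a match, with 2 copies of AGGAAG or its complement. Fgf1, Fgfr1 and Etv4 were not searched. The G and C content was 60.7% for Fgf10, 64.3% for Spry1 and 62.7% for Spry2, above the 52.7% median of all promoters, and 42.7% for Fgf9.

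The let-7 microRNAs are shown because Lin28 proteins control them, with the seed (bases 2 to 8) in capitals, followed by a match to it in the 3′ untranslated region of Hmga2, a textbook let-7 target, with the matching bases in capitals.
mmu-let-7a-5p: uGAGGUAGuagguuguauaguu
mmu-miR-98-5p: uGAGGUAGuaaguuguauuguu
Hmga2: acattcaatttCTACCTCa

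All 9 mature let-7 and miR-98 sequences of the RefSeq table share this seed. The matching word CTACCTC was found 4 times in the 3′ untranslated region of Hmga2. It was found in 0 of the 10 FGF genes and in 7.61% of 10125 genes of the table (GENCODE M21, 1 transcript each). The regions searched ran from 250 bases for Fgfr2 to 3254 bases for Fgf1, and the absence of a match says only that the word is not in these windows.

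Of the 10 genes, 6 were listed above 0 in every library and 4 were listed at 0 in all of them. Values are RPKM, read numbers per kilobase of transcript and per size of the library. The unit is meant to set levels of different genes side by side, but the zeros described below make that uncertain here. Depth, estimated from the smallest steps between values, was highest in WT, at about 48690643 reads, and lower in DKO 1 (30675941) and DKO 2 (34206618). Lin28b stood at 0.449 RPKM in WT, at 0.187 in DKO 1 and at 0.590 in DKO 2, and the library labelled DKO 2 was not below WT, and Nkx2-1 was listed at 0 throughout. The Y-linked Ddx3y was listed at 0 in WT, against 5.49 RPKM in DKO 1 and 2.64 in DKO 2, so sex cannot be told apart from genotype in any comparison with WT. Markers of lung mesenchyme (Tcf21, 9.65 to 14.4 RPKM) and of epithelium (Epcam, 6.75 to 17.4 RPKM) were present in every library.

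**Figure D1:**
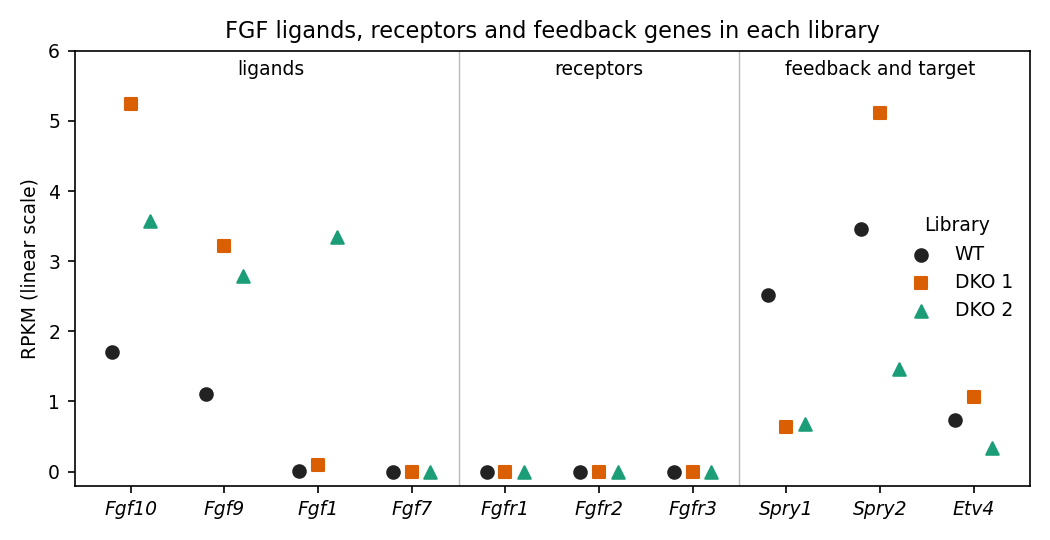
RPKM of the 10 FGF genes (linear scale) in WT (circles), DKO 1 (squares) and DKO 2 (triangles), 1 point per library, summed over transcript rows. Both DKO points lie above WT for Fgf10 and Fgf9 and below it for Spry1, and Fgf7 and the receptors are listed at 0.

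Fgf10, the ligand that draws epithelial buds outward (NM_008002, chromosome 13, 118714699 to 118792573), stood at 1.71 RPKM in WT, at 5.24 in DKO 1 and at 3.57 in DKO 2. Both DKO libraries were above WT, and they also differed from each other. The ratio to WT was 3.06 in DKO 1 (95% exact binomial interval 2.68 to 3.5) and 2.09 in DKO 2 (1.82 to 2.40), on about 343, 661 and 503 reads in WT, DKO 1 and DKO 2. Such intervals rest on approximate reads and take in only the error of counting, not the spread between animals or libraries. PCR copies of a molecule are not independent of one another, so the intervals may be too narrow even for counting. On the log2(RPKM + 1) scale, which understates changes of low genes, the DKO mean was 0.98 above WT (SE 0.65), and limma, adjusted by Benjamini-Hochberg over all 2066 tested transcripts, gave an adjusted p = 0.999.

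Fgf9 (NM_013518, chromosome 14, 58070671 to 58112854), the ligand of mesothelium and epithelium, stood at 1.10 RPKM in WT, against 3.21 in DKO 1 and 2.78 in DKO 2. Both DKO libraries were again above WT, and here they lay close together. The ratio to WT was 2.92 in DKO 1 (2.24 to 3.86) and 2.53 in DKO 2 (1.94 to 3.36). The ratio of DKO 2 to DKO 1 was 0.866, with an approximate interval of 0.690 to 1.09 that took in 1. The log2 difference of 0.93 (SE 0.68) did not pass limma (adjusted p = 0.999).

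Fgf10 was the higher of the pair in every library, at 1.55 times Fgf9 in WT, 1.63 times in DKO 1 and 1.28 times in DKO 2. In whole lung, fewer cells of a type and less RNA per cell cannot be told apart. The 18 mesenchymal markers, of which 16 had a row and Tbx4 and Pdgfrb were listed at 0 throughout, summed to 98.3 RPKM in WT, against 136 in DKO 1 and 98.9 in DKO 2. Most of each sum came from Col3a1 and Col1a2. Of 10 tested, 5 were above WT in both DKO libraries, as were 32.1% of all tested transcripts. Gli2 and Gli3 were below WT in both, as were 31.0%. The part of mesenchymal content in the level of Fgf10 was not tested. Of 9 mesothelial markers only Krt19 and Aldh1a2 had a row, and the defining genes Wt1, Msln and Upk3b were not analysed here. Krt19 went from 3.08 RPKM in WT to 6.17 and 9.11 in the DKO libraries and Aldh1a2 from 3.75 to 11.4 and 13.8, both above WT like Fgf9. Immune markers, 13 of 14 with a row and Ptprc, S100a9, Cd68 and Itgam at 0, also had a higher sum in both DKO libraries. It was 84.3 RPKM in WT against 468 in DKO 1 and 230 in DKO 2. The largest single value was that of Tyrobp in DKO 1 (219 RPKM) and of S100a8 in DKO 2 (108 RPKM). Of 7 tested, 5 were above WT in both DKO libraries, as were 32.1% of all tested transcripts. The remaining tested markers, C1qc and Fcer1g, rose in DKO 1 but lay below WT in DKO 2. There C1qc had 0.111 RPKM, from 9.43 in WT, and Fcer1g had 35.9, from 42.5. Csf1r, not tested, was also below WT in DKO 2. C1qa and C1qb, at 0.304 and 0.812 RPKM in WT, reached a mean of 1 RPKM only through the DKO libraries. The count of immune markers above WT is therefore a description and supports nothing. The part of mesothelial or immune RNA in the levels of Fgf9 and Fgf10 was not tested.

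Fgf1, a ligand that can bind every FGF receptor (NM_010197), behaved otherwise, with 0.0158 RPKM in WT and 0.0917 in DKO 1 but 3.34 in DKO 2. It was near 0 in WT and DKO 1, on about 3 and 11 reads, and in DKO 2 it stood on about 455 reads at almost the level of Fgf10. The ratio of DKO 2 to DKO 1, 2 libraries of the same label, was 36.4 (20.5 to 74.8). The log2 difference of the DKO mean from WT was 1.10 (SE 1.02, limma adjusted p = 0.999), and without DKO 2 it was 0.10. Markers of other organs were also highest in DKO 2: those of liver summed to 7.55, 11.4 and 183 RPKM, with 8 of 10 having a row and Serpina1a and Ahsg at 0, and those of heart muscle to 28.9, 19.4 and 111 RPKM, with 8 of 11 having a row and Myh6, Tnnt2 and Nppa at 0, in WT, DKO 1 and DKO 2. The erythroid markers, 11 of 12 with a row and Alas2 at 0, summed to 20202, 28715 and 102782 RPKM in the same order. Most of each sum was the globin gene Hbb-y, at 18354, 25259 and 91331 RPKM. Epor and Tal1 went the other way and were listed at 0 in DKO 2 only. The part of liver, heart muscle and erythroid RNA in the level of Fgf1 was not tested.

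Fgf7, the other mesenchymal ligand of epithelial FGFR2 (NM_008008, chromosome 2, 126034658 to 126091185), was listed at 0 in all 3 libraries. So were the receptors, with all 3 rows of Fgfr1, the only row of Fgfr2 and all 5 rows of Fgfr3 at 0. A 0 in this table need not mean that the RNA was absent, since Gapdh, used by nearly every cell, had only 0.0144 RPKM in WT, and 0.115 and 0.185 in the DKO libraries. Of transcripts from genes with 1 RefSeq mRNA 47.7% were listed at 0 throughout, against 69.4% with 2 and 84.3% with 3 or more. The receptor genes have 3, 3 and 7 RefSeq mRNAs in the order of their numbers. Fgf7 has 1, and none of its 3248 exonic bases overlaps an exon of another gene. The receptor side of the pathway could therefore not be compared between WT and DKO.

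Spry1, a Sprouty feedback inhibitor (NM_011896, chromosome 3, 37639947 to 37644599), stood at 2.52 RPKM in WT, against 0.642 in DKO 1 and 0.681 in DKO 2. The DKO libraries lay together and both were well below WT. WT was 3.93 times DKO 1 (2.89 to 5.42) and 3.71 times DKO 2 (2.78 to 4.98), on about 305, 49 and 58 reads in WT, DKO 1 and DKO 2. The ratio of DKO 2 to DKO 1 was 1.06, with an interval of 0.713 to 1.59. The log2 difference was −1.09 (SE 0.79, limma adjusted p = 0.999). Of the exonic bases of Spry1, 24.4% overlap Gm42922, annotated on the opposite strand. The labels do not say whether reads were counted by strand, so reads of that stretch are uncertain.

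Spry2, the other Sprouty gene (NM_011897, chromosome 14, 105891947 to 105896819), stood at 3.46 RPKM in WT, with 5.11 in DKO 1 and 1.46 in DKO 2. WT lay between the DKO libraries. The ratio to WT was 1.47 in DKO 1 (1.26 to 1.72) and 0.421 in DKO 2 (0.335 to 0.525), and DKO 1 was 3.51 times DKO 2 (2.80 to 4.42). The log2 difference was −0.20 (SE 0.72, limma adjusted p = 0.999), and without DKO 2 it turned to 0.45.

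Etv4, an ETS factor that FGF signalling switches on (NM_008815, chromosome 11, 101769747 to 101785310), stood at 0.730 RPKM in WT, with 1.06 in DKO 1 and 0.338 in DKO 2. The libraries stood in the same order as for Spry2, DKO 1 above WT and DKO 2 below it. The ratio to WT was 1.45 in DKO 1 (1.05 to 2.01) and 0.463 in DKO 2 (0.288 to 0.722). Its mean was under the 1 RPKM needed for testing, and in the fit without a filter the log2 difference was −0.06 (SE 0.52, limma adjusted p = 0.979). Of the immediate early genes, Fos was likewise on either side, with 1.54 RPKM in WT against 3.02 in DKO 1 and 0.0977 in DKO 2, whereas Egr1 was above WT in both, with 0.415 against 1.43 and 0.466.

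**Figure D2:**
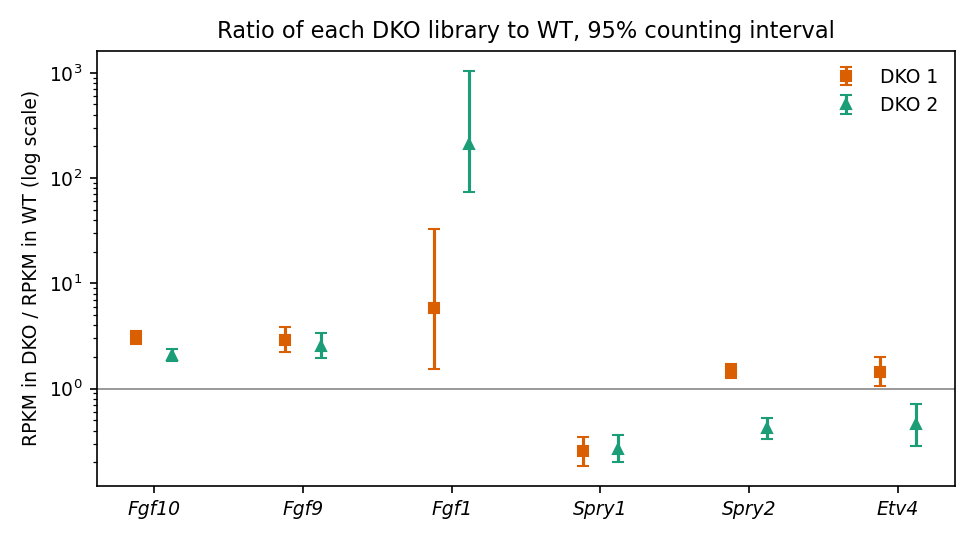
RPKM in DKO 1 (squares) and DKO 2 (triangles) divided by RPKM in WT (log axis) for the 6 genes listed above 0, with 95% exact binomial intervals for counting error. Both ratios exceed 1 for Fgf10, Fgf9 and Fgf1 and are under 1 for Spry1, while Spry2 and Etv4 have 1 library on each side.

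Markers of epithelium, the lung tissue known to express Nkx2-1, were read beside Spry1. Of 17, 14 had a row and Nkx2-1, Cldn7, Elf3 and Irx3 were listed at 0. They summed to 44.4 RPKM in WT, against 22.1 in DKO 1 and 37.9 in DKO 2. Most of this sum came from Epcam, Krt18 and Krt19, and Krt19 is also in the mesothelial list. Of 6 tested, 4 were below WT in both DKO libraries, as were 31.0% of all tested transcripts, and 1 above, as were 32.1%. The median log2 difference was −1.01, against −0.01 over all tested transcripts. Below WT, 3 met the rule of size described further on, as Spry1 and 1.5% of all tested transcripts did. These 3 were transcription factor genes: Foxa1, at 2.64 RPKM in WT against 0.798 in DKO 1 and 0.688 in DKO 2, Irx1, at 3.47 against 0.569 and 0.964, and Irx2, at 3.72 against 1.07 and 0.297. They stood low in both DKO libraries, like Spry1, and like it they reached a mean of 1 RPKM only through WT. The counts and the median of these markers are therefore descriptions and support nothing. The part of epithelial content in the level of Spry1 was not tested.

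In order of level, Spry2 and Spry1 led in WT, ahead of Fgf10, Fgf9, Etv4 and Fgf1. In DKO 1 the order was Fgf10, Spry2, Fgf9, Etv4, Spry1 and Fgf1, and in DKO 2 it was Fgf10, Fgf1, Fgf9, Spry2, Spry1 and Etv4. Fgf10 thus moved from the third place to the first in both DKO libraries. The DKO values of Fgf10 (3.57 and 5.24 RPKM) did not overlap those of Fgf9 (2.78 and 3.21 RPKM), whereas the range of Spry2 took in every value of Fgf9 and of Fgf10 other than 5.24 RPKM. Etv4 and Spry1 overlapped each other. These 2 genes have 3 and 4 RefSeq mRNAs, so their place in the order beside genes with 1 is uncertain.

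The balance of ligand to inhibitor, as a ratio of listed RPKM within a library, turned from under 1 to over 1 for Spry1. Spry1 has 4 RefSeq mRNAs, and Fgf10, Fgf9 and Spry2 have 1 each. Rows of genes with 3 or more were more often listed at 0, so where a ratio to Spry1 truly lies beside 1 is uncertain. Listed Fgf10 was 0.678 times Spry1 in WT, 8.17 times in DKO 1 and 5.25 times in DKO 2. For Fgf9 against Spry1 the ratios were 0.436, 5.01 and 4.09. Against Spry2, Fgf10 stood at 0.494 in WT, at 1.03 in DKO 1 and at 2.45 in DKO 2, and Fgf9 at 0.318, 0.629 and 1.91. All 4 ratios were higher in both DKO libraries than in WT. For Spry1 this follows from Fgf10 and Fgf9 standing above WT and Spry1 below it in both DKO libraries. The 4 ratios share genes and restate the levels given above, so they are not separate evidence. With a single WT library no spread can be given for WT, and these ratios were not tested.

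**Figure D3:**
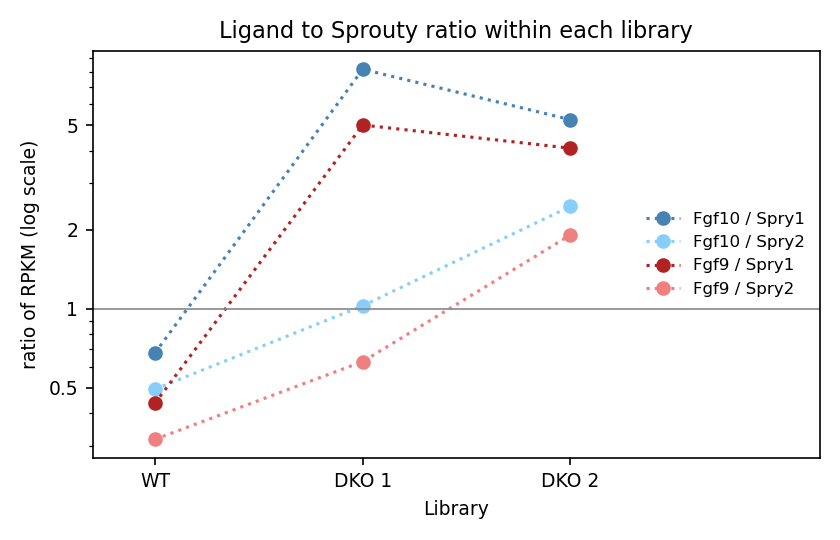
Ratio of ligand RPKM to Sprouty RPKM (log axis) within WT, DKO 1 and DKO 2, 1 point per library, with dotted lines joining points of the same pair of genes. Every ratio is under 1 in WT, and those against Spry1 reach 8.17 and 5.01 in DKO 1.

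Of the 10 genes, 5 reached the mean of 1 RPKM over the libraries that was asked of transcripts to be tested, and they are set here against all 2066. By limma 0 of 5 passed, where 2 of 2066 tested transcripts (0.0968%) did. The unadjusted limma p of Fgf10, the lowest of the group, was 0.159. An unadjusted limma p under 0.05 was found for 0 FGF genes and for 66 transcripts of all 2066. The fit had 1 residual degree of freedom, from the 2 DKO libraries, and took the spread of WT to be the same. A p that misses the threshold does not show that the levels were alike.

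By position alone, Fgf1, Fgf9 and Fgf10 were above WT in both DKO libraries, as were 32.1% of all tested transcripts, and Spry1 was below WT in both, as were 31.0%. The median log2 difference was 0.93 over the 5 FGF genes and −0.01 over all tested transcripts. Fgf1 reached a mean of 1 RPKM only through DKO 2 and Spry1 only through WT, so the counts and the median over these 5 are descriptions and support nothing. A rule of size asked for at least 2-fold on the log2(RPKM + 1) scale in both DKO libraries, on the same side of WT, with a gap between the DKO libraries smaller than the distance of either from WT. Spry1 met it below WT, as did 1.5% of tested transcripts, and 0 of the 5 met it above WT, where 3.19% did. As Spry1 passed the filter through WT alone, this says nothing of its standing among transcripts, and it did not meet the rule with a pseudocount of 5 RPKM or with quantile normalization. Fgf9 was at least 0.85 above WT in both, as were 115 transcripts (5.57% of those tested), and Fgf10 at least 0.75, as were 140 (6.78%). With a pseudocount of 0.1 RPKM in place of 1, Fgf9 and Fgf10 met the 2-fold rule above WT, as did 5.71% of tested transcripts.

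**Figure D4:**
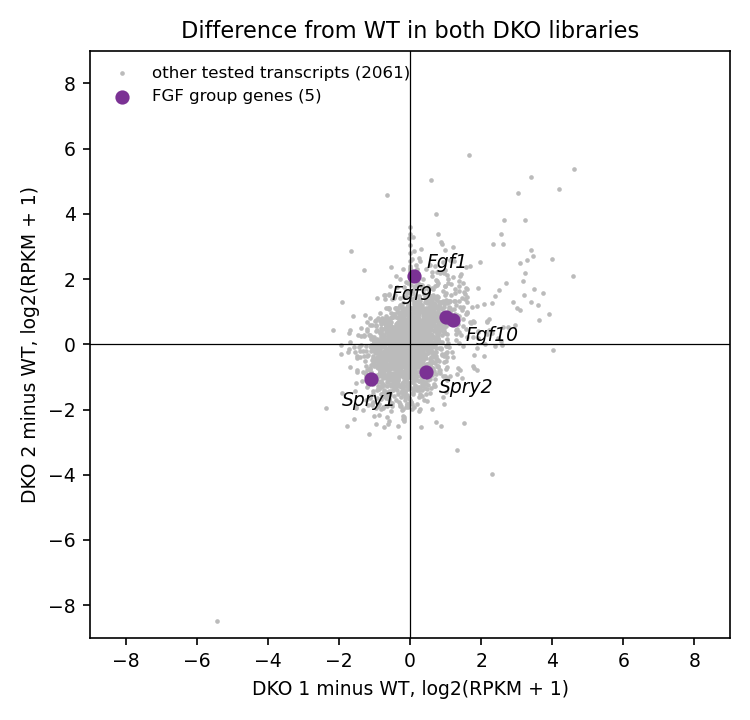
Difference from WT on the log2(RPKM + 1) scale in DKO 1 (x axis) and DKO 2 (y axis) for 5 FGF genes (purple) and all other tested transcripts (grey). Fgf9 and Fgf10 lie next to each other in the upper right, Spry1 in the lower left, and Fgf1 and Spry2 away from the diagonal.

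The other genes of the pathway came from lists chosen with earlier results of these data known. Of 24 other ligands, receptors and co-receptors, 17 had a row, 11 were listed at 0 and none reached 1 RPKM. The highest among them were Fgf4, listed at 0 in WT and DKO 1 with 0.425 RPKM in DKO 2, and Fgf2, at 0 in WT and DKO 1 with 0.168 in DKO 2. The receptor gene Fgfr4 had 0.163 RPKM in WT and was listed at 0 in both DKO libraries.

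Of 23 other feedback and target genes 14 had a row, and 1 of 5 tested passed limma, none above WT and 1 below. Of all tested transcripts, 2 of 2066 (0.0968%) passed. The 1 gene of this list was Sftpc, the surfactant gene of distal epithelium. It fell from 369 RPKM in WT to 7.55 in DKO 1 and 0.0364 in DKO 2. Its limma adjusted p = 0.0199 ran from 1.07e-20 to 0.997 over the alternatives, and the call was lost without a filter (0.922), with TPM (0.959), with quantile normalization (0.997) and with robust moderation (0.232). Sox9, a transcription factor of the epithelial tips, had 3.84, 2.34 and 1.47 RPKM. Shh, the epithelial signal that restrains Fgf10 in mesenchyme, had 1.85, 1.45 and 0.0548 RPKM. Ccnd1, a cell cycle gene, had 14.1, 12.5 and 14.1 RPKM, and Spry4, the remaining Sprouty gene above 0, had 0.0626, 0.0426 and 0.191 RPKM. Of the 5 tested, 4 were below WT in both DKO libraries, where 31.0% of all tested transcripts were, and 0 above, where 32.1% were. Among the 4, Ccnd1 was below by only 0.01 on the log2 scale in DKO 2. The others, Sftpc, Sox9 and Shh, are also among 10 markers of the distal epithelial tip, of which 9 had a row and 7 were tested. Of these 7, 4 were below WT in both DKO libraries, as were 31.0% of all tested transcripts. Gata6 was the 1 above in both, as were 32.1%, at 4.19 RPKM in WT against 7.91 in DKO 1 and 7.16 in DKO 2. The remaining 2, Mycn and Id2, were above WT in DKO 1 and below it in DKO 2. The part of epithelial content in the levels of Sftpc, Sox9 and Shh was not tested. Other targets and inhibitors of FGF signalling, Etv5, Dusp4, Dusp6 and Spred2 among them, were not analysed here. The median log2 difference of the 5 tested feedback and target genes was −0.75, against −0.01 over all tested transcripts. Etv1, an ETS factor related to Etv4, was under the level for testing, with 0.497, 0.174 and 0.0991 RPKM.

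Among 24 adaptors and kinases that carry the signal inward from the receptor, 15 had a row and 8 transcripts of 7 genes were tested, of which 0 passed limma in either direction. Grb2, the adaptor that couples receptors to Ras, had 1.11 RPKM in WT, against 2.76 in DKO 1 and 3.65 in DKO 2. Map2k1, a kinase of the cascade, had 3.33, 3.92 and 7.87 RPKM. Sos2, which loads Ras with GTP, had 0.798, 0.941 and 1.71 RPKM. Araf, a Raf kinase gene, had 6.65, 3.07 and 2.42 RPKM in NM_001159645 and 1.11, 1.56 and 0.818 in NM_009703. The rows of Araf did not follow each other, and reads shared between transcripts of 1 gene are uncertain. The median log2 difference over the 8 rows was 0.21, against −0.01 over all tested transcripts. Of the 8, 4 were above WT in both DKO libraries, as were 32.1% of all tested transcripts, and 2 below, as were 31.0%. Sos2 reached a mean of 1 RPKM only through DKO 2, so these counts and the median are descriptions and support nothing.

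Heparan sulfate chains hold FGF ligands at the cell surface and are needed for receptor binding. Of 21 genes that build or carry them 16 had a row, 8 were tested and 0 passed limma in either direction. In the order WT, DKO 1 and DKO 2, Ext1, which extends the chain, had 4.30, 5.53 and 6.59 RPKM, and Ndst2, which adds sulfate to it, had 0.578, 0.918 and 2.24. Of the syndecan core proteins, Sdc3 had 0.504, 0.977 and 1.83 RPKM and Sdc4 had 1.94, 1.44 and 0.570. Across the 8, 4 were above WT in both DKO libraries, as were 32.1% of all tested transcripts, and 1 below, as were 31.0%. The median log2 difference was 0.25, against −0.01 over all tested transcripts. Ndst2 and Sdc3 reached a mean of 1 RPKM only through DKO 2, so these counts and the median are descriptions and support nothing.

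**Figure D5:**
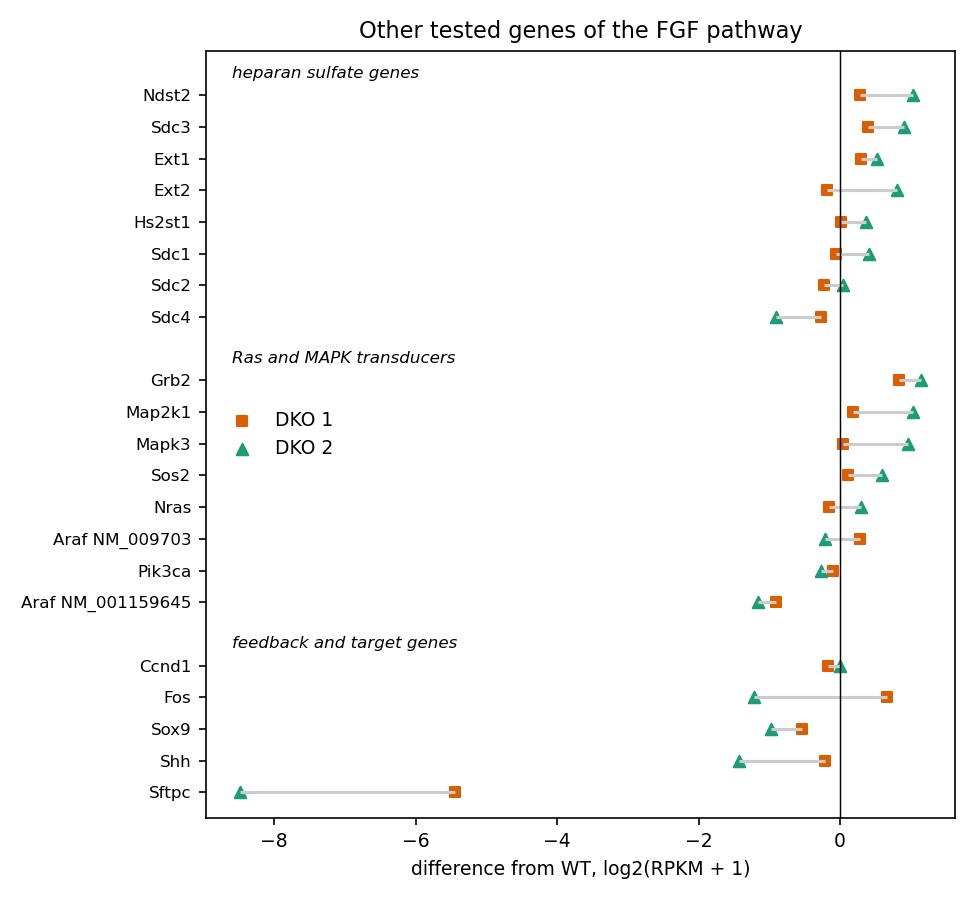
Difference from WT on the log2(RPKM + 1) scale in DKO 1 (squares) and DKO 2 (triangles) for the other tested FGF pathway transcripts, with a line joining the libraries of each. Sftpc stands at −5.44 and −8.48, and the next furthest point is Shh in DKO 2 at −1.43.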

How the data were processed

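Whole lungs were lysed in Trizol for total RNA, and SMARTer Ultra Low Input cDNA was sequenced, per the labels. The authors deposited RPKM values with 1 column per library. Per the submitters' processing notes the tools were cutadapt, TopHat2, HTSeq and edgeR with build mm10. Their versions and order, the annotation, the lengths and the strand setting are not stated there. The table ends at NM_015816, and later identifiers, Lin28a among them, were not analysed here. RefSeq (GRCm38.p6) named 16151 transcripts, GENCODE 77 more, and 155 stayed unnamed.

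RPKM was analysed as log2(RPKM + 1), with transcripts of a mean of at least 1 RPKM kept, by limma 3.58.1 in R 4.3.3 (trended empirical Bayes, two-sided, Benjamini-Hochberg adjusted p under 0.05), tested on simulated data. Approximate reads were taken from RPKM times GENCODE transcript length, divided by the product for 1 read (0.0205 in WT, 0.0326 in DKO 1 and 0.0292 in DKO 2). Of values of 1 to 100 reads, 43.9% to 45.7% lay within 0.05 of a whole number, where 10% would by chance, so no count test was run. Intervals are exact binomial at 95%, on these approximate reads rounded to whole numbers, and are approximate for the same reason. The 10 genes and all lists were chosen with earlier results of these data known. All 10 genes are named, and of each pathway list every gene that passed limma or the 2-fold rule and up to 4 tested genes furthest from WT on the same side in both DKO libraries. Fos, Egr1, Spry4, Etv1, Fgf2, Fgf4, Fgfr4, Ddx3y, Gapdh, the second row of Araf and the marker genes were added after their values were seen. One listed gene is not reported here. Alternatives were other pseudocounts, filters, scalings, moderation and fold thresholds, and leaving out each DKO library.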

Additional observations from a re-analysis of the deposited data

How the results depend on the processing

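No FGF gene passed limma in any alternative run, with an adjusted p between 0.922 and 0.999 for the 5 tested. Spry1 stayed below WT (log2 difference −1.79 to −0.41) but lost the 2-fold rule with a pseudocount of 5 RPKM and with quantile normalization, and Fgf9 (0.39 to 1.36), Fgf10 (0.48 to 1.29) and Fgf1 (0.10 to 2.81) stayed above WT. Spry2 ranged from −0.86 without DKO 1 to 0.45 without DKO 2, where it was reversed. No FGF gene could be tested at a filter of 5 RPKM. TPM moved the median log2 difference of all tested transcripts to −0.22, and beside it Spry1 stood at −1.62, Fgf10 at 0.97 and Fgf9 at 0.99. The 2 limma calls became 13 with a pseudocount of 0.1 RPKM, 1 with 5 RPKM, 10 with a filter at 5 RPKM, 14 with median scaling, and 0 without a filter, with TPM and with quantile normalization. The 66 transcripts above WT by the 2-fold rule became 118 with a pseudocount of 0.1 RPKM, 28 with 5 RPKM, 39 with a filter at 5 RPKM and 157 with a 1.5-fold rule. The 31 below became 48, 6, 11 and 118 in the same order, 49 without a filter and 67 with TPM, where 71 were above. Leaving out DKO 1 or DKO 2 gave 166 to 311 above and 114 to 244 below, values with no test. Causes were not tested. No paired analysis was possible because WT has 1 library with no replicate number. Few reads limited Fgf1 in WT, and 1 WT library limited every comparison.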
